A study of Rattus norvegicus with 48 samples.

Results

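The neuronal immediate early genes Arc (ENSRNOG00000043465), Egr1 (ENSRNOG00000019422), Nr4a1 (ENSRNOG00000007607), Fos (ENSRNOG00000008015) and Jun (ENSRNOG00000026293) were measured in the motor cortex of rats carrying a silicon electrode shank. They are 5 of the 15936 genes held by both count tables, and were chosen by name for their known response to neuronal activity. No measured value entered the rule, but earlier results of these data were known when the genes were chosen. All 5 had enough counts to be tested in every comparison. The tables give Ensembl IDs only. The pairing of the 5 IDs with symbols came with the list of genes and was not checked here against a reference.

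Immediate early genes are transcribed within minutes of a stimulus, from factors already present in the cell and without new protein synthesis. In cortical neurons, synaptic input and calcium entry activate the kinase cascades that phosphorylate CREB and the partners of serum response factor, and these bind the promoters of the early genes. Arc encodes a synaptic protein that takes part in the removal of AMPA receptors. Egr1 is a zinc finger transcription factor, Nr4a1 is an orphan nuclear receptor, and Fos and Jun pair to form the transcription factor AP-1. Fos and Jun are also induced in glia and by injury, so neither marks neurons alone. Arc is known mainly from excitatory neurons.

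Wild-type male Sprague-Dawley rats, aged 12 to 14 weeks when operated, received single-shank silicon probes in motor cortex. Rats were perfused with paraformaldehyde under deep pentobarbital anesthesia, brains were sectioned at 20 µm, and tissue was cut from the sections with a laser. Near tissue reached at most 100 µm from the shank. Far tissue was pooled from smaller pieces around 500 µm away. Each rat gave both kinds of tissue. There were 3 rats killed 24 h after implantation, 5 killed after 1 week and 4 after 6 weeks, and 6 libraries for each distance and time. A further 3 wild-type rats without a probe (naive) gave 6 libraries at each of the matching positions. These same naive rats serve as controls for all 3 times, so no control was matched to a time or to surgery, and the labels give no separate age for them.

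The 48 libraries held 3363892 to 12844185 counts and 3062 to 16023 detected genes, and 4 libraries held fewer than 6000 genes. Libraries of a rat were summed per distance, so that the rat was the replicate (30 sums). Of these sums, 18 held the libraries of both hemispheres. All 24 h and naive rats gave both hemispheres. Rats 9, 10, 20 and 22 at 1 week and rats 2 and 11 at 6 weeks gave 1 hemisphere each. Levels are given as CPM, which expresses a count relative to the depth of its library, with TMM factors over all 30 sums. CPM is not divided by gene length, so levels are compared within a gene and never between genes. The naive libraries lie in a table of their own with another numbering, so in every comparison with naive tissue the library batch and the implant cannot be told apart. In bulk tissue, fewer neurons and less RNA per neuron cannot be told apart either. Markers of neurons, glia and blood were not analysed here, because their symbols could not be paired with the tables' IDs.

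The promoters of Egr1 and Nr4a1 are shown because the promoter table used here held these 2 of the 5 genes, which were also each other's closest match in level across rats. Each is the 250 bases before the RefSeq start on assembly GRCr8, plus strand, read 5′ to 3′. Capitals mark matches on either strand to the CArG box, bound by serum response factor, and to CGTCA, the core of the CREB site.
Egr1, chr18:26736828-26737077: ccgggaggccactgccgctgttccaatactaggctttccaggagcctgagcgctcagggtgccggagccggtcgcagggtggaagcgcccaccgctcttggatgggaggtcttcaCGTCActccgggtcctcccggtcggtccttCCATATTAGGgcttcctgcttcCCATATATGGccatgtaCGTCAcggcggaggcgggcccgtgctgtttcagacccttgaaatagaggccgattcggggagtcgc
Nr4a1, chr7:134259888-134260137: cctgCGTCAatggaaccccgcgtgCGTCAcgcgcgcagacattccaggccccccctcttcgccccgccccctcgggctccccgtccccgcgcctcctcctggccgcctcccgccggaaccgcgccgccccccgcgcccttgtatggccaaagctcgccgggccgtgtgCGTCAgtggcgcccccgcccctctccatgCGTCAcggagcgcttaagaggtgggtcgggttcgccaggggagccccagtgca
The Egr1 window held 2 CArG boxes, and 0.0209% of 33469 rat promoter windows of this length held at least as many, while 1.50% held at least 1. It also held 2 CGTCA matches, a number reached in 3.98% of windows. The Nr4a1 window held 4 CGTCA matches, reached in 0.173% of windows, against 18.2% with at least 1. It held 0 CArG boxes. The full palindrome TGACGTCA, which contains CGTCA, was in neither window and in 1.59% of all. A match is a run of letters, and binding was not measured.

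Arc lay below every naive rat in the near tissue of all 12 implanted rats, and in the far tissue of 11. Only the far difference at 1 week was called among the single times. Naive tissue at the 100 µm position measured 264, 407 and 300.0 CPM in its 3 rats. Near tissue measured 37.5, 77.1 and 32.4 CPM at 24 h in rats 25, 29 and 30. At 1 week it measured 183, 57.6, 0, 29.4 and 98.6 CPM in rats 9, 10, 20, 22 and 23. At 6 weeks it measured 131, 142, 68.3 and 87.7 CPM in rats 2, 11, 17 and 19. All 12 near values thus lay below all 3 naive values, also when scaled by library total or by DESeq2 size factors. Of 14783 genes, 1.81% were likewise lower in every near rat. The mean near level of 78.7 ± 53.2 CPM (SD, n = 12) was 4.11-fold below the naive mean of 324 ± 74.6 CPM (SD, n = 3).

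**Figure D1:**
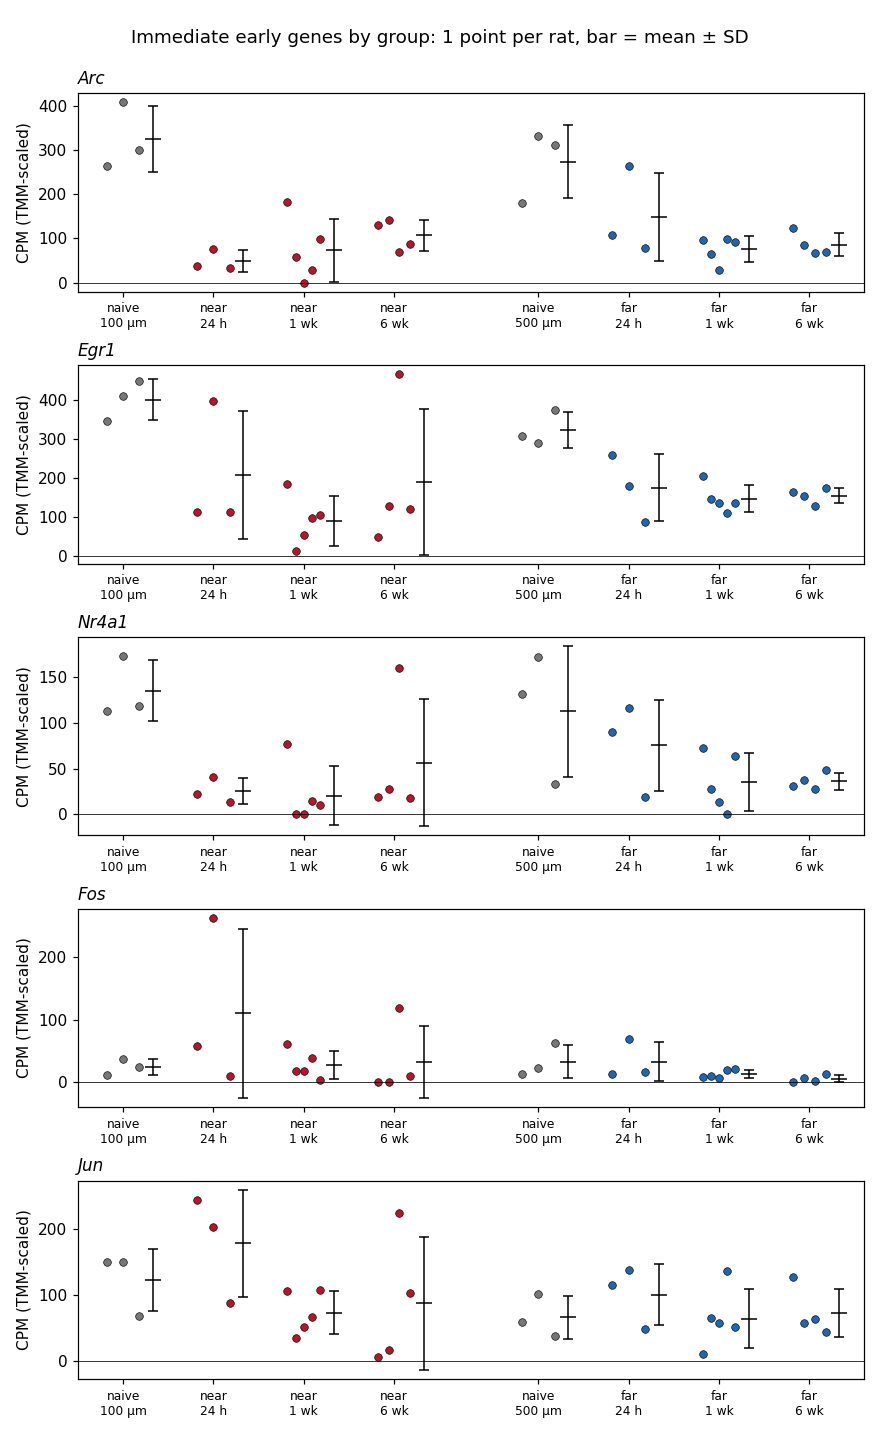
Level of each gene in CPM (linear axis) in 8 groups, naive tissue in grey, near tissue in red and far tissue in blue, with 1 point per rat and the mean ± SD beside the points. All 12 near points of Arc lie below the naive 100 µm points, and all 12 far points of Egr1 lie below the naive 500 µm points.

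In far tissue Arc was compared with naive tissue at the same position. Naive tissue at the 500 µm position measured 179, 330.3 and 311 CPM. Far tissue measured 107, 263 and 78.2 CPM at 24 h, 96.5, 64.5, 29.2, 97.9 and 92.1 CPM at 1 week, and 123, 85.4, 67.2 and 69.4 CPM at 6 weeks, with the rats in the order given above. Of the 12 far values, 11 lay below every naive value, and the exception was rat 29 at 24 h. All 12 far values lay below in 0.9% of 14783 genes, and the share with at least 11 is not given here. The 1-week mean of 76.0 ± 29.5 CPM (SD, n = 5) was 3.60-fold below the naive mean of 274 ± 82.2 CPM (SD, n = 3).

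The far 1-week difference in Arc passed edgeR's quasi-likelihood test, with a log2 fold change of -1.89 ± 0.37 (SE) and a Benjamini-Hochberg adjusted p of 0.0157 over 13369 genes. It was 1 of 5 members called, against 0.127% of all genes tested, and 0.0972% when only lower calls are counted. Arc ranked 4 by p among the genes tested. Over 21 alternative analyses its adjusted p ran from 0.00075 to 0.109, and 18 of them kept the call. The call was lost without rat 10 (0.0594), without naive rat n3 (0.0545), and with libraries not summed per rat (0.109). Of the far 1-week rats only rat 23 gave both hemispheres, with 14640277 counts in genes of both tables. The others gave 6169294 to 8026434. The naive 500 µm sums, all of both hemispheres, held 10986653 to 13467053. At 6 weeks the far log2 fold change was -1.70 ± 0.40 with an adjusted p of 0.0844 (0 of 5 members called, 0.0598% of genes), and at 24 h it was -0.91 ± 0.43 with an adjusted p of 0.642 (0 of 5, 0.00748% of genes). These 3 comparisons share the same naive rats and are not independent of each other.

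The mean of the 3 times against naive was added after the values had been seen. There Arc fell by 1.50 ± 0.31 on the log2 scale in far tissue, with an adjusted p of 0.00910 (edgeR). It was 1 of 5 members called, against 0.135% of genes, or 0.12% counting lower calls. The adjusted p rose to 0.132 without naive rat n3 and to 0.0915 without naive rat n5. Far libraries held 5089 to 11505 detected genes and naive 500 µm libraries 7192 to 9555. Over the 24 implanted sums the rho of Arc with the number of detected genes was -0.0835. With the 4 libraries of few genes left out, the 1-week far difference was -1.84 with an adjusted p of 0.0156.

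In near tissue the fitted Arc differences from naive had wider errors and none was called. The log2 fold change was -2.71 ± 1.35 at 24 h (adjusted p = 0.831, edgeR), -2.13 ± 1.11 at 1 week (0.725) and -1.58 ± 1.18 at 6 weeks (adjusted p of 1). The added mean of the 3 times gave -2.14 ± 0.90 with an adjusted p of 0.595. Near tissue of rat 20 at 1 week came from 1 library, with 5119 detected genes and 0 Arc counts. Without that rat, the mean over the 3 times was -1.99 with an adjusted p of 0.00172, and the 24 h difference was -2.65 with an adjusted p of 0.00922. The 24 h rats were the same in both fits, which share their spread over the times. The 1-week difference was not called without rat 20. Without the 4 libraries of few detected genes, of which rat 20 gave 1, the mean was -1.95 with an adjusted p of 0.00230 and the 24 h difference -2.46 with an adjusted p of 0.0267. Near Arc was called in 2 of 21 alternatives at 24 h, 0 of 21 at 1 week, 1 of 21 at 6 weeks and 2 of 20 in the mean. No member was called at 24 h, 1 week, 6 weeks or in the mean over times in near tissue against naive, where 0.0578%, 0.123%, 0.0434% and 0.188% of 13834 genes were called.

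**Figure D2:**
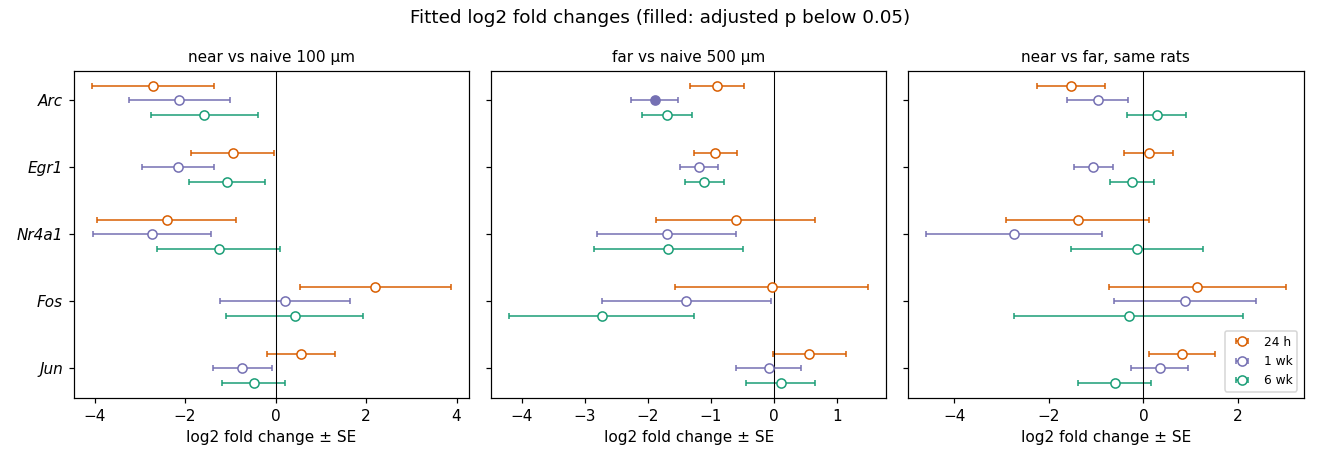
Fitted log2 fold changes with approximate standard errors for the 5 genes, by time, for near tissue against naive 100 µm, far tissue against naive 500 µm, and near against far within rats. The single filled point, Arc in far tissue at 1 week, is the only planned comparison with an adjusted p below 0.05.

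Within rats, the near-far Arc difference had opposite signs at 24 h and 6 weeks and was not called at any time. Near tissue was lower than far tissue in 3 of 3 rats at 24 h (log2 fold change -1.53 ± 0.72, adjusted p of 1, edgeR with the rat as a block). At 1 week it was lower in 3 of 5 rats (-0.97 ± 0.64, 0.964), and the value was -0.19 without rat 20 and -0.05 without the block. At 6 weeks it was higher in 4 of 4 rats, or 3 of 4 when scaled by library total (0.28 ± 0.61, adjusted p of 1). The joint test for a change of the near-far difference over the 3 times gave an adjusted p of 1 (edgeR).

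Egr1 was lower in far tissue than in naive tissue in every rat. Naive 500 µm tissue measured 307, 289 and 375 CPM. Far tissue measured 258, 179 and 86.0 CPM at 24 h, 205, 145, 137, 110 and 136 CPM at 1 week, and 164, 154, 128 and 173 CPM at 6 weeks. The 12 far values, 156 ± 45.1 CPM (SD, n = 12), did not overlap the naive values, 324 ± 45.4 CPM (SD, n = 3), under any of the 3 scalings. The ratio of means was 2.07-fold. Egr1 was the only 1 of the 5 members without overlap in far tissue over all 12 rats, where 0.9% of 14783 genes were lower in every rat. In near tissue the only such member was Arc, against 1.81% of genes.

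The far differences in Egr1 did not pass the threshold. The log2 fold change was -0.94 ± 0.34 at 24 h (adjusted p = 0.642, edgeR), -1.19 ± 0.30 at 1 week (0.0922) and -1.11 ± 0.31 at 6 weeks (0.256). The added mean over times was -1.08 ± 0.25, and its adjusted p of 0.0501 lay just above the threshold. DESeq2 called Egr1 lower at 1 week (adjusted p = 0.00344), at 6 weeks (0.0154) and in the mean (0.00211). On all genes that test called 777, 659 and 835 against 17, 8 and 18 by edgeR.

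Near tissue gave a wider range of Egr1. The naive 100 µm values were 346, 411 and 449 CPM. Near tissue measured 113, 399 and 111 CPM at 24 h, 185, 11.0, 52.1, 95.8 and 104 CPM at 1 week, and 46.7, 128, 467 and 120.2 CPM at 6 weeks. All 5 rats at 1 week lay below the naive rats, with a mean of 89.5 ± 65.0 CPM (SD, n = 5). The share of all genes that did so at 1 week is not given here. Rat 29 at 24 h lay within the naive range and rat 17 at 6 weeks above it. When scaled by library total, all 3 rats at 24 h lay below the naive rats and 0 at 6 weeks lay above them. The 1-week log2 fold change against naive was -2.16 ± 0.80 with an adjusted p of 0.408 (edgeR). It was called in 4 of 21 alternatives: without naive rat n2 (adjusted p = 0.0304), without naive rat n3 (0.0184), without the low-count filter (0.00417) and with libraries not summed (0.0207). At 24 h and 6 weeks it was -0.94 ± 0.92 and -1.07 ± 0.84, each with an adjusted p of 1.

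Against far tissue of the same rats, Egr1 was lower near the shank in 5 of 5 rats at 1 week, or 4 of 5 with DESeq2 size factors. The log2 fold change of -1.06 ± 0.41 had an adjusted p of 0.429 (edgeR), and was -0.53 without rat 10. The median over all genes in that comparison was itself -0.66, or -0.23 without rat 20. At 24 h and 6 weeks the log2 fold change was 0.11 ± 0.52 and -0.24 ± 0.46, both with an adjusted p of 1. Over all times 9 of 12 rats had less Egr1 near than far, where the median gene was lower in 5 rats and higher in 4. Equal values counted in neither number, while every library held Egr1 counts. The share of genes lower in at least 9 rats is not given here, so 9 of 12 cannot be placed among all genes.

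**Figure D3:**
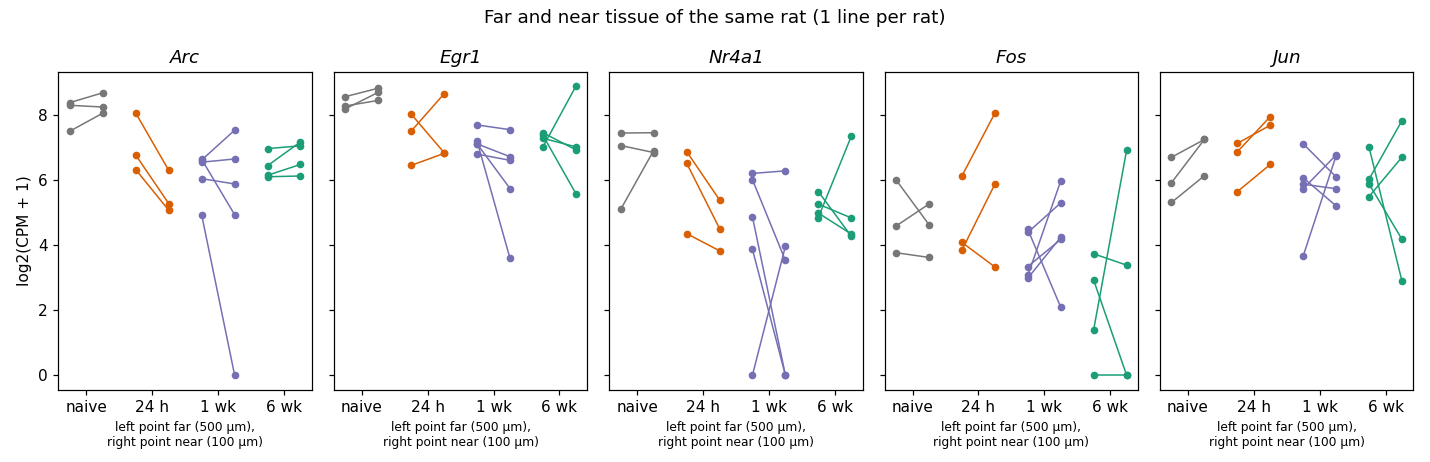
Level of each gene as log2(CPM + 1) in far tissue (left point) and near tissue (right point) joined for each rat, in naive, 24 h, 1-week and 6-week rats. Arc falls from far to near in all 3 rats at 24 h and Egr1 falls in all 5 rats at 1 week, and points at 0 are sums without a count.

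Nr4a1 near the shank lay below every naive rat in 11 of 12 rats, with no call. The share of all genes that did so is not given here. Naive 100 µm tissue measured 113, 173 and 118 CPM. Near tissue measured 21.7, 40.7 and 13.1 CPM at 24 h, 76.4, 0, 0, 14.5 and 10.5 CPM at 1 week, and 19.2, 27.4, 160.2 and 18.3 CPM at 6 weeks. The exception was rat 17 at 6 weeks. The mean near level of 33.5 ± 44.8 CPM (SD, n = 12) was 4.03-fold below the naive 135 ± 33.3 CPM (SD, n = 3). The fitted log2 fold changes of -2.41 ± 1.54, -2.74 ± 1.30 and -1.26 ± 1.36 at 24 h, 1 week and 6 weeks had adjusted p of 1, 0.528 and 1 (edgeR).

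Far tissue overlapped naive tissue in Nr4a1. The naive 500 µm rats measured 132, 172 and 33.1 CPM, so the controls themselves spanned a wide range. Far values ran from 19.3 to 116 CPM at 24 h. They ran from 0 to 72.2 CPM at 1 week and from 27.6 to 48.8 CPM at 6 weeks. Of the 12 far values, 6 lay below every naive value, or 5 when scaled by library total or by DESeq2 size factors. The log2 fold changes of -0.61 ± 1.26, -1.71 ± 1.10 and -1.68 ± 1.18 had adjusted p of 1, 0.720 and 0.826 (edgeR). Near tissue was lower than far tissue in 9 of 12 rats, including 3 of 3 at 24 h. How many of all genes were lower in as many rats is not given here. The near-far log2 fold changes of -1.39 ± 1.51, -2.73 ± 1.86 and -0.13 ± 1.40 at the 3 times were not called, with adjusted p of 1, 0.964 and 1. The 1-week value was -1.17 without rat 10 and -1.24 without rat 20, whose near sums held 0 Nr4a1 counts.

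Fos varied widely between rats, and its highest values came from single rats. Naive 100 µm tissue measured 11.2, 37.2 and 23.6 CPM. Near tissue measured 57.4, 264 and 9.00 CPM at 24 h, so 2 of 3 rats lay above the naive range and the third below it. At 1 week it measured 61.5, 17.0, 17.8, 38.1 and 3.24 CPM. At 6 weeks it measured 0, 0, 119 and 9.39 CPM, with rat 17 far above the others. The fitted near against naive log2 fold change was 2.21 ± 1.67 at 24 h, 0.21 ± 1.44 at 1 week and 0.42 ± 1.51 at 6 weeks, each with an adjusted p of 1 (edgeR). The median over all genes was between -0.30 and -0.17 in these comparisons.

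In far tissue Fos overlapped naive tissue at 24 h and 1 week. Naive 500 µm tissue measured 12.5, 22.9 and 62.8 CPM, and far tissue measured 13.3, 68.5 and 15.9 CPM at 24 h and 7.34, 9.08, 6.88, 19.9 and 21.2 CPM at 1 week. At 6 weeks it measured 0, 6.54, 1.63 and 12.2 CPM, all below the naive values, or 3 of 4 below when scaled by library total. The share of all genes separated at 6 weeks is not given here. The 6-week log2 fold change was -2.73 ± 1.47 with an adjusted p of 0.608 (edgeR). Near tissue exceeded far tissue in 4 of 5 rats at 1 week and 2 of 3 at 24 h. The near-far log2 fold changes of 1.14 ± 1.87, 0.89 ± 1.50 and -0.31 ± 2.42 were smaller than their standard errors.

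Jun overlapped between implanted and naive tissue at every time. Naive 100 µm tissue measured 150.2, 149.9 and 68.8 CPM. Near tissue measured 245, 203 and 87.7 CPM at 24 h, 106, 35.7, 51.9, 67.0 and 107 CPM at 1 week, and 6.39, 17.0, 225 and 103 CPM at 6 weeks. The log2 fold changes of 0.56 ± 0.75, -0.73 ± 0.66 and -0.49 ± 0.69 had adjusted p of 1 (edgeR). Far values were 48.7 to 138 CPM at 24 h, 11.6 to 137 CPM at 1 week and 43.8 to 127 CPM at 6 weeks, against 38.5 to 102 CPM in naive 500 µm tissue. The far log2 fold changes of 0.56 ± 0.58, -0.09 ± 0.52 and 0.10 ± 0.54 also had adjusted p of 1.

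Jun was higher near the shank than far from it in 3 of 3 rats at 24 h (log2 fold change 0.82 ± 0.70, adjusted p of 1). The naive rats showed the same order in 3 of 3 (0.87 ± 0.47, adjusted p = 1.00). With the naive difference between positions subtracted, the 24 h value was -0.08. In that fit the median over all genes was -0.97, and between the naive positions alone it was 0.40. The near-far log2 fold change was 0.34 ± 0.60 at 1 week and -0.61 ± 0.78 at 6 weeks.

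Across the 5 members, no near against far comparison called a gene. This held at 24 h (0 of 5, 0.132% of 14399 genes called), at 1 week (0 of 5, 0.396%), at 6 weeks (0 of 5, 0.0764%) and for the mean over times (0 of 5, 1.51%). The members' median log2 fold change was 0.11, -0.97, -0.24 and -0.40 in these comparisons, beside -0.08, -0.66, -0.05 and -0.39 over all genes tested. Single rats moved these medians. Without rat 20 the 1-week values were -0.19 for the members and -0.23 for all genes. The members' median was -0.41 at 24 h without rat 29, and at 6 weeks it was -0.88 without rat 17 and 0.30 without rat 2. In far tissue against naive the members' median was -0.61, -1.39 and -1.68 at 24 h, 1 week and 6 weeks, beside -0.00, 0 and -0.04 over all genes. In near tissue it was -0.94, -2.13 and -1.07, beside -0.17, -0.30 and -0.17. These medians moved with single rats as well. Far tissue at 24 h gave -0.13 without rat 30 and -1.06 without rat 29. Near tissue at 24 h gave -1.84 without rat 29 and -0.61 without rat 25. At 6 weeks near tissue gave -2.02 without rat 17 and -0.75 without rat 2.

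Time since implantation gave no call among the members. A change over the 3 times was called for 0 of 5 in near tissue (0.0781% of 12799 genes) and for 0 of 5 in far tissue (0% of 12995 genes by edgeR, with 422 genes at an unadjusted p below 0.05 and 9 called by DESeq2). Far Arc had the lowest unadjusted p of the members, 0.0465, with an adjusted p of 1.00. A change of the near-far difference over time was called for 0 of 5 (0.0278% of genes). The positions of naive tissue also gave 0 of 5 (0% of 11839 genes by edgeR, 600 at an unadjusted p below 0.05 and 1357 called by DESeq2). The median log2 fold change of all genes between the naive positions was 0.40.

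Egr1 and Nr4a1 were each other's closest match among the 5935 genes whose mean log2 CPM reached 3. Over the 24 implanted sums their Spearman rho was 0.871 and Pearson's r of log2 CPM was 0.74. Within distance rho was 0.839 in near tissue and 0.818 in far tissue (12 rats each). Leaving out the 2 sums with the most extreme Egr1, near tissue of rats 10 and 17, gave a rho of 0.837 and an r of 0.58. The points are not independent, since each rat gave a near and a far point and each pair of values from the same libraries. The rho with the number of detected genes was 0.358 for Egr1 and 0.337 for Nr4a1.

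**Figure D4:**
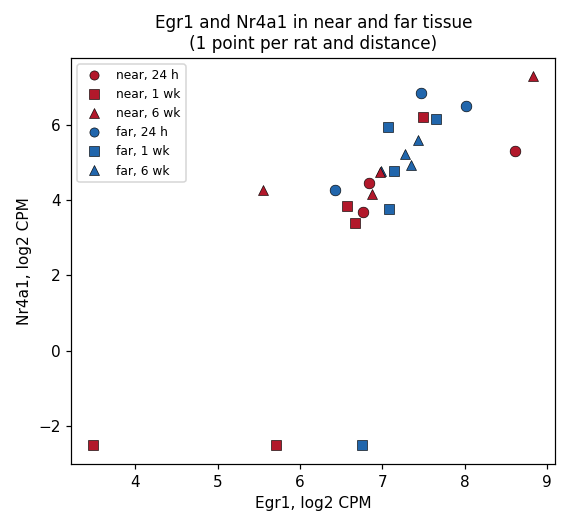
Log2 CPM of Nr4a1 against Egr1 in the 24 implanted sums, near tissue in red and far tissue in blue, with the time given by the symbol. The 3 lowest points hold 0 Nr4a1 counts, so that a prior count sets their height, and over the other sums the 2 genes rise together.

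The AP-1 partners Fos and Jun had a rho of 0.513 over the 24 sums, 0.690 in near tissue and 0.133 in far tissue. Arc had a rho of -0.164 to Fos and 0.0496 to Jun over the 24 sums, but 0.336 and 0.510 in far tissue and -0.263 and -0.0769 in near tissue. To Nr4a1 its rho was 0.463 over all sums, 0.531 in near and 0.545 in far tissue, and to Egr1 it was 0.302, 0.364 and 0.448. Outside the 5, the gene most like Arc was ENSRNOG00000002093 (rho 0.714), and the gene most like Fos was ENSRNOG00000008298 (rho 0.748), both over the 24 sums. For Jun the highest rho was 0.732. Each is the highest value picked among 5935 genes over only 24 sums, so its size alone does not show a shared pattern. The median rho over those genes was 0.0452 for Arc, -0.0231 for Fos and 0.0191 for Jun.

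Hemispheres of 1 rat differed in these genes, and the left-right fold over all genes was not measured. Over 18 left-right pairs of libraries the median fold was 2.05 for Arc, 1.86 for Egr1, 1.81 for Nr4a1, 3.56 for Fos and 2.10 for Jun, in pairs without a zero. A fold above 2 was seen in 8, 8, 6, 7 and 9 of the pairs. A zero was present in 2, 0, 3, 7 and 0 of the pairs. The highest fold was 121 for Fos, in naive 500 µm tissue of rat n2 (0.18 and 21.9 CPM), and 35.7 for Jun, in far tissue of rat 23 at 1 week (2.63 and 93.9 CPM). The lower Fos value was 1 count, so the size of that fold is not reliable. The lower Jun value was 24 counts from a library with 5089 detected genes. For Egr1 the highest fold was 15.3, in near tissue of rat 17 at 6 weeks, with 813 CPM on the right and 53.0 CPM on the left. Its right near library was also high in Fos, at 196 CPM against 26.5 CPM on the left, and in Nr4a1, at 225 against 82.1 CPM. The far Arc value of rat 29 at 24 h, the only one within the naive range, likewise came from 426 CPM on the right and 48.5 CPM on the left. Of the 48 libraries, 3 held no Arc count, all near, and 10 held no Fos count (3 near, 5 far, 2 naive). For Nr4a1 6 libraries held none (4 near, 1 far, 1 naive), and every library held Egr1 and Jun.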

How the data were processed

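RNA was sequenced from laser-captured motor cortex in 48 libraries. The authors deposited raw read counts, whole numbers per gene, which were used unchanged. The submitters' processing notes list STAR 2.6.1b and RSEM 1.3.1, the trimming and quality tools cutadapt 2.3 and FastQC 0.11.8, a DESeq2 without version and the build Rnor_6.0, and give their use in no order. The sources used here do not say whether RSEM's estimates were rounded. RSEM shares reads between similar genes, so a level can include reads of a related gene.

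The 5 genes, the lists and the tests were chosen with earlier results of these data known. All 5 genes were named throughout, and the gene most like each was taken by Spearman's rho over 24 sums among genes whose mean log2 CPM reached 3. Other early genes and cell type markers fixed by symbol were not analysed, since 0 genes of the RefSeq table (GRCr8) had an Ensembl ID. All 5 symbols were in that table and 2 in its promoter table.

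Counts of a rat's libraries were summed per distance. Counts were fitted with edgeR 4.0.16 (R 4.3.3): filterByExpr, TMM scaling and a robust glmQLFit quasi-likelihood fit. P-values were adjusted by Benjamini-Hochberg over all genes tested, with a threshold of 0.05. The rat was a block for near against far tissue, since the labels tie both to the same rat. The deviations of near and far tissue of a rat correlated between 0.00566 and 0.0883 over 15 rats. Other fits had no block. Implanted and naive tissue were compared over the genes in both tables. Standard errors are approximate (log2 fold change over the root of F). Among 120 pairs of libraries of 1 group, none looked like a repeat deposit (chi-square over its degrees of freedom at least 55.0). The labels name separate rats. Against naive tissue and over time, p-values thus measure the spread of levels between rats. With the rat as a block, they measure the spread of the difference between positions within rats. In both, edgeR draws each gene's spread toward that of all genes, so p-values do not rest on a gene's own rats alone. The fits were tested on simulated data. The alternatives were another scaling, leaving out each rat, DESeq2 1.42.0 as the test, no filter on low counts, no block, unsummed libraries, fewer groups or rats in the fit, subtraction of the naive difference, and leaving out 4 libraries with fewer than 6000 genes. The means of the 3 times against naive were 2 comparisons added after the values were seen.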

Additional observations from a re-analysis of the deposited data

Results flagged for a closer look

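In 20 groups of 4 or 5 rats (each of the 5 genes in near and far tissue at 1 and 6 weeks), 3 held a rat far from the others. Chance gives about 1 in 20 only for independent groups of normally distributed values. CPM with zeros need not be so distributed, and the genes share the same rats, so no excess can be read from this number. Near tissue of rat 17 at 6 weeks was far above its group in Fos, at 119 CPM with the next rat at 9.39 CPM, and in Nr4a1, at 160.2 CPM with the next rat at 27.4 CPM. Both came mainly from its right library, in which Egr1 was high as well. Near tissue of rat 9 at 1 week measured 76.4 CPM of Nr4a1, with the next rat at 14.5 CPM, from a single library.

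For 2 genes every rat of one group went against every rat of another. Arc was lower near than far in every rat at 24 h (log2 fold change -1.53) and higher in every rat at 6 weeks (0.28). The joint test of this difference over the 3 times gave an adjusted p of 1 (edgeR), and by library total 1 of 4 rats at 6 weeks had the other sign. Egr1 was lower near than far in every rat at 1 week (-1.06) and higher at the 100 µm position in every naive rat (0.27). The difference between them was tested by subtracting the naive difference, which gave -1.38 with an adjusted p of 0.979 (edgeR). In that fit the median over all genes was -1.68, lower than the Egr1 value. Between the naive positions the median over all genes was 0.40, so neither sign sets Egr1 apart from the typical gene.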

How the results depend on the processing

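Of 1525 alternative values of the 80 results on single genes, 1499 kept their side of the threshold, 5 lost a call, 21 gained one and no called value changed sign. Values with no call took the other sign 47 times. The number of members called moved as follows, with the cause not tested. DESeq2 called 2 of the 5 members in far tissue against naive at 1 week, at 6 weeks and in the mean over times, where edgeR called 1, 0 and 1. Without a low-count filter the calls were 1 in near tissue at 1 week, 1 in far tissue at 6 weeks and 2 in the far mean. With libraries not summed they were 1 in near tissue at 1 week, 1 in the near mean and 0 in far tissue at 1 week. With only the compared groups in the fit, 1 member was called in near and in far tissue at 6 weeks. Without the libraries of few detected genes, 1 was called in near tissue at 24 h and in the near mean. Leaving out 1 rat at a time gave 0 to 1 calls in near tissue at 24 h (1 without rat 20), at 1 week (1 without n2 or n3) and in the mean (1 without rat 20). It gave 0 to 1 in far tissue at 1 week (0 without rat 10 or n3) and at 6 weeks (1 without rat 25 or n2), and 0 to 2 in the far mean (2 without rat 25 or rat 9, 0 without n3 or n5). Without the replicate block, 0 members were called in any comparison of near with far tissue or of naive positions.

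Counts over all genes moved more. Over the edgeR alternatives they ranged from 0 to 43, 1 to 79, 0 to 41 and 83 to 242 for near against far at 24 h, 1 week, 6 weeks and in the mean, where the analysis reported gave 19, 57, 11 and 217 and DESeq2 529, 1304, 330 and 1172. Against naive, near tissue gave 6 to 36, 7 to 48, 2 to 19 and 12 to 66, beside 8, 17, 6 and 26 and DESeq2's 400, 308, 183 and 197. Far tissue gave 1 to 9, 4 to 22, 2 to 18 and 16 to 33, beside 1, 17, 8 and 18 and DESeq2's 680, 777, 659 and 835. The change of the near-far difference over time gave 0 to 19 beside 4, near tissue over time 2 to 25 beside 10, far tissue over time 0 to 7 beside 0, and the naive positions 0 to 9 beside 0. Fos, Nr4a1 and Arc held 0 counts in 10, 6 and 3 of 48 libraries, with the cause not tested.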
